A study of Mus musculus with 93 samples.

Results

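Lipid-associated macrophages are macrophages that gather around lipid-laden cells and carry a shared set of transcripts. The 10 genes described here are commonly used to mark them: Trem2, Gpnmb, Cd9, Spp1, Itgax, Lgals3, Cd63, Mmp12, Lpl, and Fabp5. They were picked by symbol from the liver RNA-seq table of the study, in which each symbol matched 1 Ensembl gene, so that 10 of the 53465 genes of the table are covered. All 10 were among the 19110 genes that passed the filter on low counts. Liver RNA came from 93 male mice of 4 classical strains (A/J, DBA/2J, 129S1/SvImJ, and C57BL/6J) and 3 wild-derived strains (PWK/PhJ, WSB/EiJ, and CAST/EiJ). All mice were housed at thermoneutrality (TN, 30°C) from 6 wk of age, and from 7 wk they received a western-style diet (WD, 40% of energy from fat) or a matched control diet (CD, 10% of energy from fat) for 17 wk, until tissue collection at 24 wk. The groups, called CD-TN and WD-TN, held 8 and 8 mice of C57BL/6J, 6 and 7 of DBA/2J, 5 and 6 of A/J, 7 and 6 of 129S1/SvImJ, 6 and 6 of WSB/EiJ, 7 and 8 of CAST/EiJ, and 6 and 7 of PWK/PhJ. The samples are whole liver, in which macrophages are a minority of cells, so more cells of a type and more RNA per cell cannot be told apart.

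Macrophages of the liver comprise the resident Kupffer cells and cells that arrive as monocytes. In livers loaded with fat, single-cell work has described macrophages around lipid droplets and scars that express TREM2, a surface receptor for lipids and lipoproteins that signals through the adaptor TYROBP. Such cells also express lysosomal, lipid-handling, and matrix-degrading proteins, to which the other genes of the list belong. DBA/2J mice carry a known nonsense allele of Gpnmb, so Gpnmb was followed in that strain with particular care. None of the 10 genes is made by macrophages alone. Spp1, for example, is also made by bile duct cells, Lpl by fat and muscle cells, and Fabp5 by hepatocytes.

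Between 40020424 and 49894856 reads lay on genes in each mouse. Reads from each strain were aligned by the authors to the genome of C57BL/6J, and the median share of reads that did not map was 2.39% in C57BL/6J and 2.20% in A/J, 5.16% to 6.05% in 129S1/SvImJ, DBA/2J, PWK/PhJ, and WSB/EiJ, and 12.5% in CAST/EiJ. This share also differed between diets: it was 3.50% ± 0.71 on CD-TN (SD, n = 6) and 7.88% ± 1.18 on WD-TN (SD, n = 7) in PWK/PhJ. The means on CD-TN and WD-TN were 4.52% and 7.42% in WSB/EiJ, 10.8% and 13.3% in CAST/EiJ, and in DBA/2J 6.45% and 4.77%. For C57BL/6J they were 2.23% and 2.82%, for A/J 2.25% and 2.11%, and for 129S1/SvImJ 4.55% and 5.57%. The part of the unmapped reads in the results was not tested. Levels are given as CPM, the reads on a gene scaled to the TMM-normalized total of its library. No 2 libraries of a group were alike within sampling noise, since the lowest chi-square per gene over 268 pairs of mice was 19.0. In 1 library the values stood apart. C57BL/6J CD-TN mouse 2 lay 0.992 log2 units (root mean square over genes) from the rest of its group, against 0.710 for the next library and a median of 0.430 over the 93.

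That mouse was above each of the 7 other CD-TN mice of its strain for 9 of the 10 genes. Gpnmb was 178 CPM in it and 0.591 to 7.88 CPM in the others, Trem2 was 15.3 against 0.495 to 2.89, Mmp12 was 68.2 against 0.763 to 21.0, and Lpl was 440.1 against 23.9 to 101. Cd9 was 55.4 CPM against 29.1 to 51.2, and Fabp5 was the exception, at 28.0 CPM below the 39.6 to 161 CPM of the others. In the same mouse 8 of 8 bile duct cell markers, 10 of 10 stellate cell and fibroblast markers, and 6 of 6 adipocyte markers exceeded the other 7 mice, with summed levels of 109 CPM against 34.1 to 52.0, 1075 CPM against 351 to 528, and 17.6 CPM against 0.317 to 1.27. Of 12 general macrophage and monocyte markers 5 were above and 2 below all others (summed 482 CPM against 211 to 399). Of 8 Kupffer cell markers 0 were above and 4 below (164 CPM against 225 to 450), and of 8 endothelial cell markers 1 was above and 5 below (253 CPM against 327 to 375). The part of any of these in the levels of the 10 genes was not tested. Because this mouse widens the spread in its group and the shared estimate of the spread, results are given with all 93 mice and, where they change, without it, a choice made after seeing the data.

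**Figure D1:**
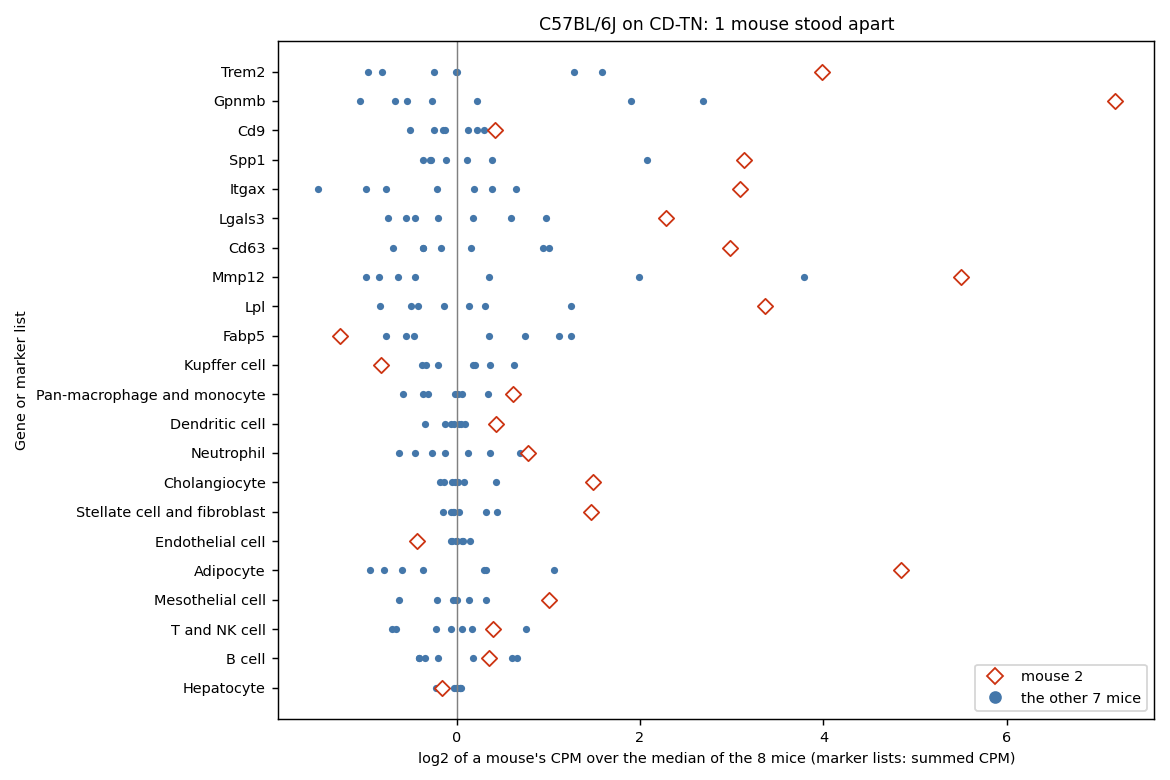
C57BL/6J mice on CD-TN, as log2 of the CPM of each mouse over the median of the 8 mice, for the 10 genes and for the summed CPM of 12 marker lists. Diamonds are mouse 2 and circles the other 7 mice, and the diamond lies right of all circles for 9 genes and left of them for Fabp5 and for the Kupffer cell and endothelial cell lists.

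WD-TN upregulated 9 of the 10 genes in PWK/PhJ, 8 in C57BL/6J, 8 in 129S1/SvImJ, 3 in A/J, 3 in WSB/EiJ, 1 in CAST/EiJ, and 0 in DBA/2J, by limma-voom with p-values adjusted over all genes and a threshold of 0.05. The counts depended on the test. With all mice, edgeR called 2 upregulated in C57BL/6J (12.3% of all genes by that test), 8 in 129S1/SvImJ (14.5%), 5 in A/J (4.77%), 5 in WSB/EiJ (6.12%), 5 in CAST/EiJ (9.38%), 9 in PWK/PhJ (14.5%), and 1, Mmp12, in DBA/2J (9.84%). DESeq2 called 2 in C57BL/6J (13.9%), 5 in WSB/EiJ (6.67%), 6 in CAST/EiJ (9.35%), 6 in A/J (6.56%), 8 in 129S1/SvImJ (15.6%), 9 in PWK/PhJ (15.5%), and 1, again Mmp12, in DBA/2J (11%). In DBA/2J the count at an unadjusted limma-voom p under 0.05 was 1. Over all genes tested, the share upregulated by limma-voom was 15.1% in PWK/PhJ, 14.3% in C57BL/6J, 14.5% in 129S1/SvImJ, 4.39% in A/J, 4.97% in WSB/EiJ, 9.77% in CAST/EiJ, and 10.2% in DBA/2J. Downregulated were 2 of the 10 in C57BL/6J, 1 each in PWK/PhJ, 129S1/SvImJ, A/J, and DBA/2J, and 0 in WSB/EiJ and CAST/EiJ, where the shares over all genes were 11.9%, 14.5%, 13.6%, 4.64%, 7.77%, 3.97%, and 9.73% in that order of strains. The median log2 fold change of the 10 genes reached 2.44 in PWK/PhJ and 2.07 in 129S1/SvImJ, and it was 1.18 in A/J, 1.11 in C57BL/6J, 0.90 in CAST/EiJ, 0.82 in WSB/EiJ, and 0.34 in DBA/2J, beside medians over all genes between -0.01 and 0.02.

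Mice were also compared without a model. Each WD-TN mouse lay above each CD-TN mouse for 8 of the 10 genes in PWK/PhJ (6.59% of all genes), 7 in 129S1/SvImJ (9.23%), 5 in A/J (4.14%), 4 in WSB/EiJ (2.5%), 1 in DBA/2J (4.68%), and 0 in CAST/EiJ (0.952%) and C57BL/6J (0.806%). Separation in the downward direction was seen for Fabp5 alone, in PWK/PhJ (6.02% of all genes), DBA/2J (2.6%), and C57BL/6J (0.973%). No gene of the list was separated downward in 129S1/SvImJ (7.18%), A/J (3.94%), WSB/EiJ (1.86%), or CAST/EiJ (1.28%).

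Without C57BL/6J CD-TN mouse 2, limma-voom called 5 of the 10 upregulated in A/J (5.05% of all genes), 5 in WSB/EiJ (5.23%), and 2 in CAST/EiJ (10.4%), and the counts of 9 in PWK/PhJ (15.7%), 8 in C57BL/6J (16.7%), 8 in 129S1/SvImJ (14.9%), and 0 in DBA/2J (10.1%) were equal to those with all mice. The C57BL/6J count depended on this mouse through the choice of test: with all mice edgeR's quasi-likelihood test and DESeq2's Wald test each called 2 genes upregulated there, and without it each called 8 (16.8% of all genes by edgeR and 18.1% by DESeq2). With all mice, the count in C57BL/6J was 5 when any of CD-TN mouse 1, 5, 7, or 8 or WD-TN mouse 3 was left out. It was 5 in A/J without WD-TN mouse 6, and 0 in CAST/EiJ without CD-TN mouse 5 or 6 or WD-TN mouse 7. Each strain was studied in 2 cohorts (3 for CAST/EiJ), and in each cohort the difference between diets had the sign of the call for all called genes except Cd63 in C57BL/6J. With cohort as a covariate in limma-voom the C57BL/6J count was 5 (13.9% of all genes), and Spp1 (adjusted p = 0.21), Cd63 (0.16), and Lpl (0.084) no longer passed.

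**Figure D2:**
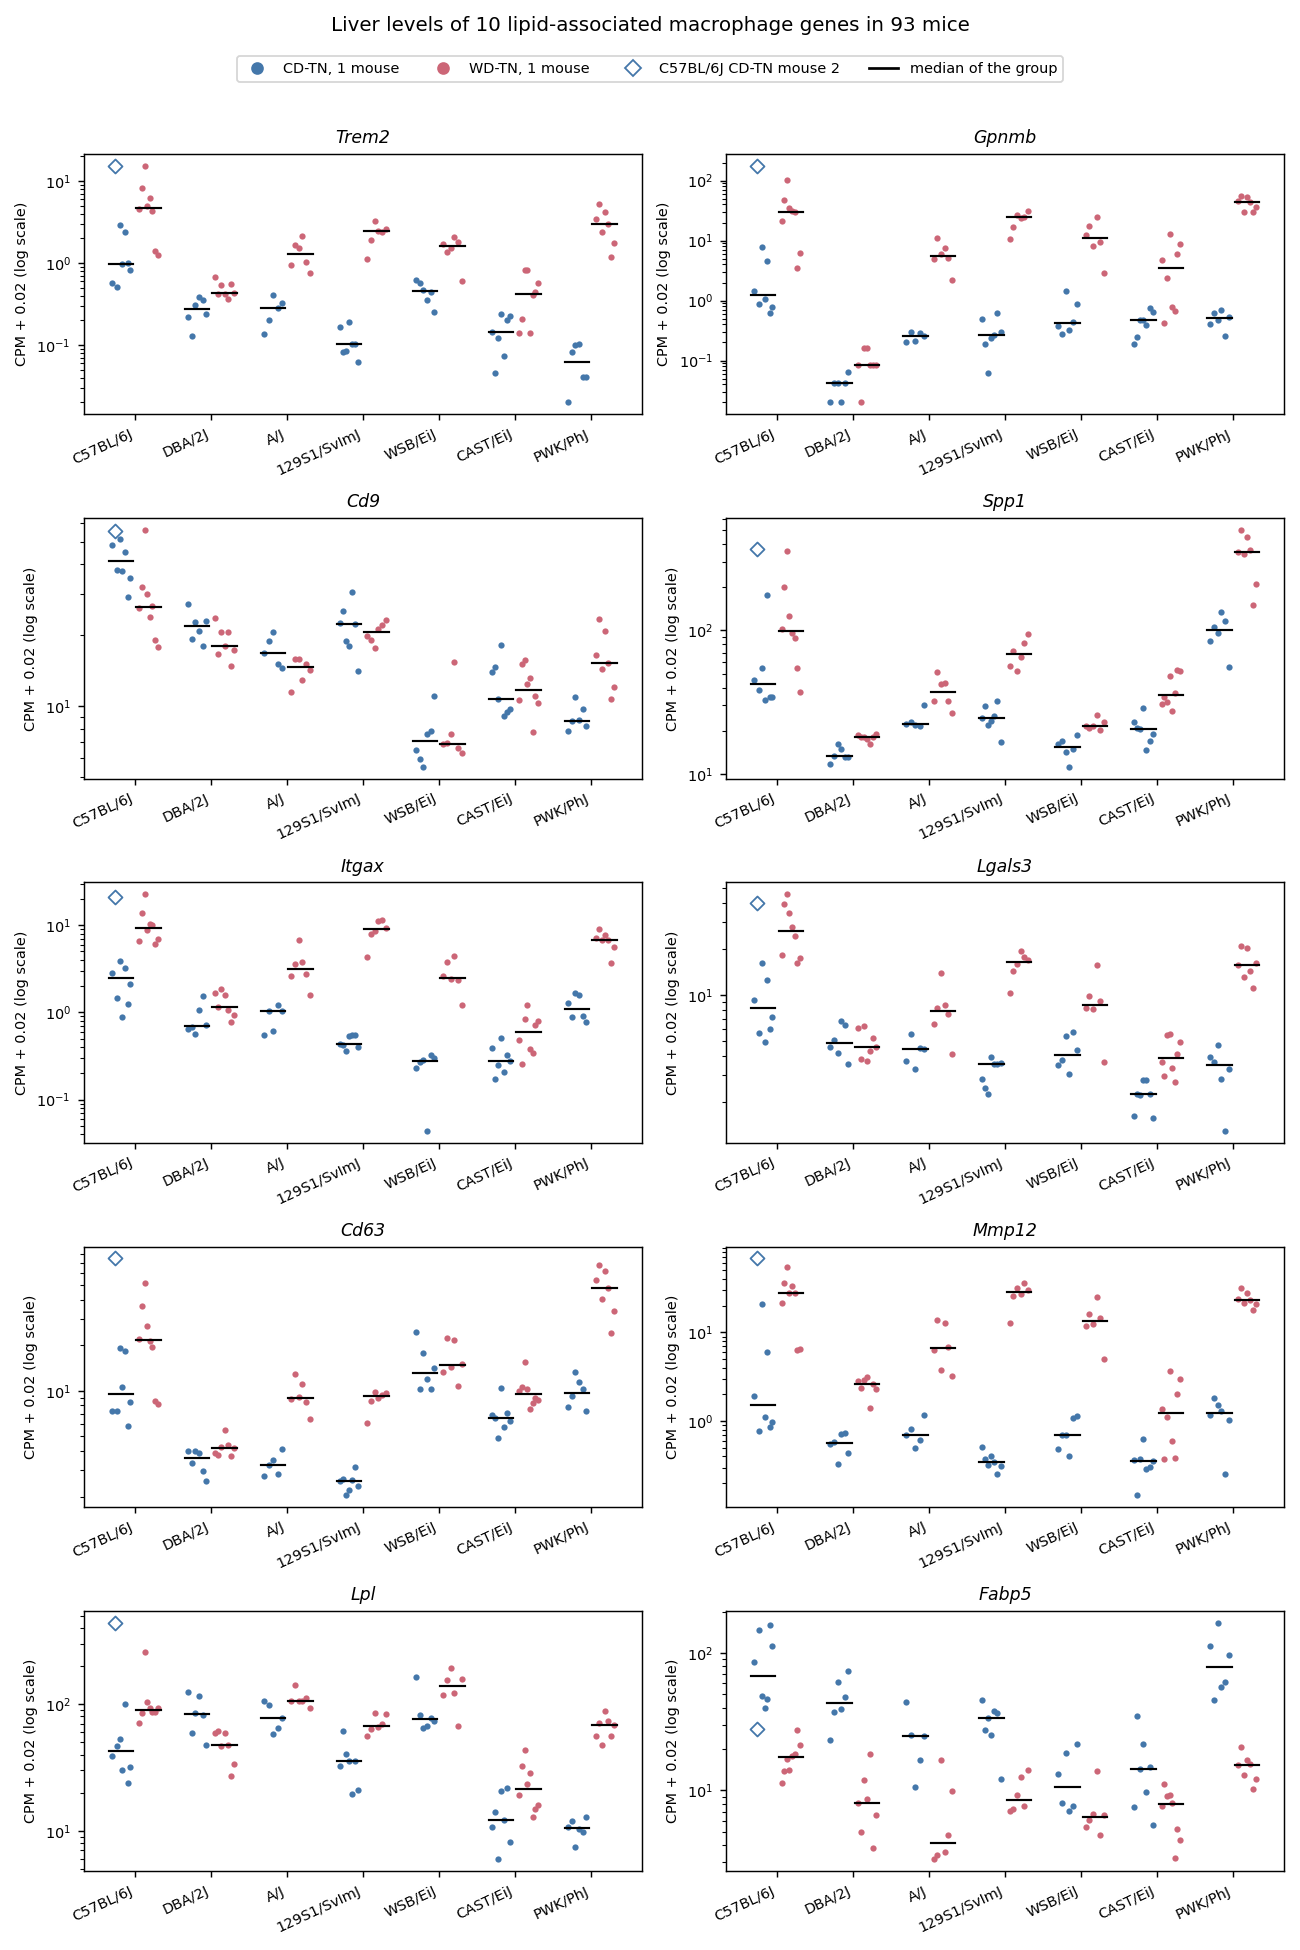
Level of each gene in each of the 93 mice, as CPM + 0.02 on a log axis, by strain and diet, with bars at group medians. Blue circles are CD-TN mice, red circles WD-TN mice, and the open diamond is C57BL/6J CD-TN mouse 2. Gpnmb in DBA/2J does not exceed 0.143 CPM on either diet, and Fabp5 runs opposite to most other genes.

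The promoters of genes that moved together were inspected for the letters bound by factors of macrophages and lysosomal genes. RefSeq promoter sequences (build GRCm38.p6, the C57BL/6J reference and not the sequence of the other strains) were matched for 8 of the 10 genes, with 10 start sites, and 250 bases upstream of each start site were searched on both strands. Lpl and Fabp5 had no match. The motifs were the PU.1 core GAGGAA, the E-box CACGTG and the M-box TCACATG of the MiT/TFE factors, and the AP-1 pattern TGANTCA. In the last, N was allowed to be any base. The matches found do not overlap each other. Capitals mark the matches in the promoters shown here, those of the 4 genes with the largest log2 fold changes in 129S1/SvImJ, all on the plus strand: Trem2 at chr17:48346151-48346400, Gpnmb at chr6:49036268-49036517, Itgax at chr7:128129300-128129549, and the first start site of Mmp12 at chr9:7344147-7344396.
Trem2: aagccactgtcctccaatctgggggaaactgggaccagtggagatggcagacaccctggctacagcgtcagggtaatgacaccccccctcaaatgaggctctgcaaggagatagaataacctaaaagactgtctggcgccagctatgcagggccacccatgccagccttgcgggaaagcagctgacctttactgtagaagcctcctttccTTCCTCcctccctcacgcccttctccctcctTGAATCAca
Gpnmb: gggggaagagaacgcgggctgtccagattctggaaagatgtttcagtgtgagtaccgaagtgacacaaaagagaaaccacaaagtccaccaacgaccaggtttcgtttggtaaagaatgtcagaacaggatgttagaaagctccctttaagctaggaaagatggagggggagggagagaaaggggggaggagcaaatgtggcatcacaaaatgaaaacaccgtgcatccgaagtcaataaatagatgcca
Itgax: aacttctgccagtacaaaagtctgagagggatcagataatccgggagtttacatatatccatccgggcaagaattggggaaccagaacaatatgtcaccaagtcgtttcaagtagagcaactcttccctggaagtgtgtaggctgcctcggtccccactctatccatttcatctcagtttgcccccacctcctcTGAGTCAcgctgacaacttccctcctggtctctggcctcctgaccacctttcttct
Mmp12: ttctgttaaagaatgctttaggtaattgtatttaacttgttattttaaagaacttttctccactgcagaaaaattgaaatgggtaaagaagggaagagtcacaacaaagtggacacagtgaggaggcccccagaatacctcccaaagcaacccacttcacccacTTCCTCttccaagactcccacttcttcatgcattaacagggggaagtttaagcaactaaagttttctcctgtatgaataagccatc
The PU.1 core occurred in 4 of the 8 genes: Trem2, Spp1, Cd63, and Mmp12. It lay at 4 of the 10 start sites, beside 23.3% of all 32851 promoters. The AP-1 letters occurred in 3 genes and at 3 of the 10 start sites, beside 6.75% of all promoters. They read TGAATCA in Trem2 and TGAGTCA in Itgax and at the second start site of Mmp12. The M-box lay at 1 of the 10 start sites, the second of Mmp12, beside 3.50% of all promoters. The E-box was found in 0 of the 8 genes and at 0 of the 10 start sites, beside 6.02% of all promoters. In the Gpnmb window 0 of the 4 motifs were found. A match of letters is not a binding site.

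Trem2 (ENSMUSG00000023992, chromosome 17, 48346401 to 48354147 on the plus strand of GRCm38) encodes the lipid-sensing receptor itself. In PWK/PhJ on CD-TN it had 0, 3, 4, 4, 1, and 1 reads in the 6 mice, a median of 0.0423 CPM, and on WD-TN it lay between 1.18 and 5.17 CPM with a median of 2.98. Both groups were fully separated, and the log2 fold change was 6.01 (SE 1.05, limma-voom adjusted p = 3.9e-06), which ranked 7 of all genes in this strain. With so few reads on CD-TN, the size of this fold and its rank carry large counting error. By log2 CPM with a prior count of 2, the difference was 5.40 in cohort 1 and 4.84 in cohort 2. In 129S1/SvImJ it went from 0.0421, 0.0826, and 0.173 CPM (lowest, median, and highest mouse) to 1.10, 2.43, and 3.26 CPM, again without overlap, for a log2 fold change of 4.52 (SE 0.84, limma-voom adjusted p = 1.8e-05). The A/J mice had 0.116, 0.183, 0.391, 0.267, and 0.302 CPM on CD-TN and 0.747 to 2.10 CPM on WD-TN, also without overlap, and the log2 fold change of 2.33 missed the threshold with all mice (limma-voom adjusted p = 0.055) and passed it without C57BL/6J CD-TN mouse 2 (adjusted p = 0.022).

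In C57BL/6J, Trem2 was 0.495 to 15.3 CPM on CD-TN with a median of 0.967, and 1.22 to 15.4 CPM on WD-TN with a median of 4.73. The highest CD-TN mouse, mouse 2, lay within the WD-TN range, and the log2 fold change was 1.55 with it (SE 0.36, limma-voom adjusted p = 5.3e-04) and 2.07 without it (adjusted p = 3.0e-06). The difference between diets was 2.07 log2 units in cohort 1 (3 CD-TN and 5 WD-TN mice) and 0.47 in cohort 2 (5 and 3 mice). In WSB/EiJ the median went from 0.435 to 1.60 CPM (log2 fold change 1.76, limma-voom adjusted p = 0.097, and 0.046 without C57BL/6J CD-TN mouse 2). DBA/2J had medians of 0.254 and 0.413 CPM and CAST/EiJ of 0.123 and 0.405 CPM, with log2 fold changes of 0.93 and 1.53 and limma-voom adjusted p of 0.49 and 0.26.

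Gpnmb (ENSMUSG00000029816, chromosome 6, 49036546 to 49070929, plus strand) encodes a transmembrane glycoprotein of lysosomes and the cell surface. On WD-TN it had the largest log2 fold change of all genes tested in 129S1/SvImJ and in A/J, the next to largest in WSB/EiJ, and rank 3 in PWK/PhJ. PWK/PhJ mice went from 0.232, 0.485, and 0.688 CPM (lowest, median, highest) to 29.5, 44.1, and 54.9 CPM, a log2 fold change of 6.46 (SE 1.12, limma-voom adjusted p = 3.7e-06). In 129S1/SvImJ the corresponding values were 0.0425, 0.248, and 0.589 CPM and 10.7, 24.3, and 31.6 CPM, a log2 fold change of 6.48 (SE 1.30, limma-voom adjusted p = 6.8e-05). The WD-TN mice of both strains lay far above their CD-TN mice, and within cohorts the difference was between 6.24 and 6.37 log2 units.

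A/J mice had 0.185, 0.275, 0.195, 0.267, and 0.237 CPM of Gpnmb on CD-TN, and 2.22 to 11 CPM on WD-TN with a median of 5.56. There was no overlap, yet limma-voom gave an adjusted p of 0.056 for the log2 fold change of 4.52 (SE 1.58), against 0.019 without C57BL/6J CD-TN mouse 2 and 0.0012 with edgeR. WSB/EiJ went from a median of 0.394 CPM (0.254 to 1.41) to 10.9 CPM (2.89 to 24.9), a log2 fold change of 4.36 (SE 1.19, limma-voom adjusted p = 0.0094). In CAST/EiJ the WD-TN mice spread from 0.405 to 13 CPM around a median of 3.53, beside 0.172 to 0.744 CPM on CD-TN. The 6 highest of the 8 WD-TN mice were above all CD-TN mice, and the log2 fold change of 2.63 gave an adjusted p of 0.13 with limma-voom and 0.0013 with edgeR.

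C57BL/6J had the widest range of Gpnmb. On CD-TN it was 0.591 to 178 CPM with a median of 1.23, and on WD-TN 3.45 to 104 CPM with a median of 30.2. The log2 fold change of 2.93 (SE 0.56, limma-voom adjusted p = 3.3e-05) was 3.87 without CD-TN mouse 2 (adjusted p = 2.9e-07), while edgeR gave adjusted p of 0.57 with and 4.7e-09 without that mouse.

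DBA/2J differed from the 6 other strains in the level of Gpnmb. The CD-TN mice had 0, 1, 1, 0, 1, and 2 reads and the WD-TN mice 3, 0, 7, 6, 3, 3, and 3 reads, which is at most 0.0441 and 0.143 CPM. All 7 WD-TN mice were below each WD-TN mouse of the 6 other strains, the lowest of which had 0.405 CPM in CAST/EiJ. On WD-TN the DBA/2J level was below the mean of the other 6 strains, by a fitted log2 difference of -7.42 (SE 1.77, limma-voom adjusted p = 3.1e-04). On CD-TN, where Gpnmb was low in most mice, the difference of -4.34 did not pass (limma-voom adjusted p = 0.16). With so few reads no fold between diets is given for this strain, and the diet effect missed the threshold (limma-voom adjusted p = 0.81).

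Itgax (ENSMUSG00000030789, chromosome 7, 128129547 to 128150657, plus strand) encodes CD11c, the alpha X integrin chain of dendritic cells and of many activated macrophages. In 129S1/SvImJ it went from 0.340, 0.418, and 0.537 CPM to 4.28, 9.00, and 11.5 CPM, a log2 fold change of 4.22 (SE 0.51, limma-voom adjusted p = 8.0e-10). In WSB/EiJ it went from 0.0238, 0.258, and 0.307 CPM to 1.18, 2.49, and 4.45 CPM, a log2 fold change of 3.75 (SE 0.75, limma-voom adjusted p = 2.2e-04). Both diets were separated in these strains, as they were in PWK/PhJ (median 1.07 to 6.75 CPM, log2 fold change 2.53) and A/J (1.01 to 3.12 CPM, log2 fold change 1.91, limma-voom adjusted p = 0.012). In C57BL/6J the WD-TN mice lay between 6.07 and 22.6 CPM and the CD-TN mice other than mouse 2 between 0.865 and 3.85 CPM, and the log2 fold change was 1.83 with mouse 2 and 2.30 without. DBA/2J (0.682 to 1.12 CPM) and CAST/EiJ (0.258 to 0.574 CPM) overlapped between diets and did not pass. Of 8 markers of dendritic cells, which Itgax also marks in part, 4 were upregulated in C57BL/6J (14.3% of all genes) and 4 in 129S1/SvImJ (14.5%). The counts were 2 in WSB/EiJ (4.97%), 1 each in A/J (4.39%) and PWK/PhJ (15.1%), and 0 in DBA/2J (10.2%) and CAST/EiJ (9.77%). In DBA/2J 1 of these markers was downregulated (7.77% of all genes). The summed level of the 8 markers in 129S1/SvImJ was 9.59 to 11 CPM on CD-TN and 11.9 to 14.4 CPM on WD-TN. Their part in the Itgax values was not tested.

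Mmp12 (ENSMUSG00000049723, chromosome 9, 7344381 to 7369499, plus strand) encodes the macrophage elastase, which cleaves elastin. Its annotation shares 157 exonic bases with Mmp1b on the opposite strand, and whether the counting separated strands is not given in the sources used here. It was the gene of the list that separated the diets in the most strains, 5 of 7, DBA/2J included. The DBA/2J mice had 0.310 to 0.718 CPM on CD-TN and 1.38 to 3.12 CPM on WD-TN, with medians of 0.554 and 2.62. All 7 WD-TN mice exceeded all 6 CD-TN mice, and the log2 fold change of 2.20 (SE 0.98) had an adjusted p of 0.11 with limma-voom and 0.011 with edgeR. In WSB/EiJ the level went from 0.380 to 1.13 CPM on CD-TN to 5.00 to 24.8 CPM on WD-TN, a log2 fold change of 4.21 (SE 0.87, limma-voom adjusted p = 3.6e-04).

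A/J had 0.670, 0.801, 0.478, 0.601, and 1.14 CPM of Mmp12 on CD-TN and 3.24 to 14.0 CPM on WD-TN, a log2 fold change of 3.22 (SE 0.93, limma-voom adjusted p = 0.016). The log2 fold change was 6.25 in 129S1/SvImJ, rank 2 of all genes there, and 4.55 in PWK/PhJ. C57BL/6J went from a median of 1.51 CPM on CD-TN, with mouse 2 at 68.2 and mouse 4 at 21.0 CPM, to a median of 27.9 CPM on WD-TN (6.32 to 54.5). Its log2 fold change was 2.64 with mouse 2 and 3.34 without, both past the limma-voom threshold. In CAST/EiJ the medians were 0.336 and 1.22 CPM, and the log2 fold change of 1.83 did not pass with limma-voom (adjusted p = 0.29).

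Spp1 (ENSMUSG00000029304, chromosome 5, 104435118 to 104441050, plus strand) encodes osteopontin, a secreted matrix glycoprotein. It shares 309 exonic bases with Gm42793 on the same strand, so reads there may have been counted as ambiguous. Adjusted for exon length it had the highest level of the list in PWK/PhJ on WD-TN, a median of 214 CPM per kb, followed by Cd63 at 13, Lgals3 at 8.41, Cd9 at 7.47, Gpnmb at 6.77, Lpl at 6.58, Fabp5 at 4.30, Mmp12 at 3.23, Itgax at 1.41, and Trem2 at 0.603. The length joins all annotated exons of a gene, such as 1648 bases for Spp1, 3682 for Cd63, and 3567 for Fabp5. It can exceed the length of the expressed transcript, so this order need not be one of transcript abundance. PWK/PhJ mice had 55.8 to 135 CPM of Spp1 on CD-TN and 149.6 to 501 CPM on WD-TN (medians 101 and 352), a log2 fold change of 1.73 (SE 0.32, limma-voom adjusted p = 1.2e-05). In 129S1/SvImJ the ranges were 16.8 to 32.3 and 52.3 to 93.9 CPM, a log2 fold change of 1.50. Neither strain had overlap between diets.

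The Spp1 log2 fold change was 0.92 in CAST/EiJ (SE 0.31, limma-voom adjusted p = 0.025), where 7 of 8 WD-TN mice exceeded all CD-TN mice, and it was the 1 gene of the list called in that strain with all mice. In C57BL/6J it was 0.75 with CD-TN mouse 2 (adjusted p = 0.036, and 0.30 with edgeR) and 1.12 without it (limma-voom adjusted p = 1.9e-04). In WSB/EiJ all 6 WD-TN mice (20.3 to 25.7 CPM) were above all 6 CD-TN mice (11.2 to 18.8 CPM), but the limma-voom adjusted p was 0.42 with all strains in the fit and 0.0068 with a separate fit of WSB/EiJ. DBA/2J (medians 13.2 and 18.1 CPM) and A/J (22.2 and 37.2 CPM) did not pass in the joint fit, with limma-voom adjusted p of 0.51 and 0.26, and passed in separate fits, with 0.0017 and 0.014. Of the 8 bile duct cell markers, 5 were upregulated in PWK/PhJ (15.1% of all genes). The count was 1 each in 129S1/SvImJ (14.5%) and CAST/EiJ (9.77%), near those shares, and 0 in the others (4.39% to 14.3%). Downregulated was 1 each in C57BL/6J (11.9% of all genes), DBA/2J (7.77%), and A/J (4.64%). The summed level of the 8 markers in PWK/PhJ was 32.3 to 49.3 CPM on CD-TN and 38.4 to 60.7 CPM on WD-TN. Their part in the Spp1 values was not tested.

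Lgals3 (ENSMUSG00000050335, chromosome 14, 47367751 to 47386160, plus strand) encodes galectin-3, a lectin that binds galactosides and damaged lysosomes. It was upregulated in PWK/PhJ, from 1.27, 3.46, and 4.65 CPM to 11.1, 15.6, and 20.9 CPM, a log2 fold change of 2.36 (SE 0.34, limma-voom adjusted p = 3.2e-08). The 129S1/SvImJ values were 2.21, 3.53, and 3.92 CPM and 10.3, 16.4, and 19.3 CPM, a log2 fold change of 2.32. Both strains had separated diets. In C57BL/6J the medians were 8.21 and 26.0 CPM (log2 fold change 1.37, and 1.69 without CD-TN mouse 2, which had 40.1 CPM), and edgeR with all mice called it too (adjusted p = 4.3e-04). A/J (0.85), WSB/EiJ (1.01), and CAST/EiJ (0.88) had log2 fold changes that did not pass with all mice, and WSB/EiJ passed without C57BL/6J CD-TN mouse 2 (limma-voom adjusted p = 0.021). DBA/2J mice lay between 3.53 and 6.74 CPM on CD-TN and between 3.64 and 6.27 CPM on WD-TN, with a log2 fold change of -0.06 (SE 0.35).

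Cd63 and Cd9 encode tetraspanins, membrane proteins of which CD63 resides in late endosomes and lysosomes and CD9 at the cell surface and on exosomes. Cd63 (ENSMUSG00000025351, chromosome 10, 128900989 to 128912822, plus strand) was upregulated in PWK/PhJ from 7.28, 9.70, and 13.2 CPM to 24.1, 48.0, and 67.6 CPM (log2 fold change 2.21, SE 0.30, limma-voom adjusted p = 9.1e-09). It was upregulated in 129S1/SvImJ from 2.02 to 3.09 CPM to 6.14 to 9.80 CPM (log2 fold change 1.82) and in A/J from 2.73 to 4.10 CPM to 6.47 to 13 CPM (log2 fold change 1.51, limma-voom adjusted p = 0.030). In each of these 3 strains the diets did not overlap. WSB/EiJ had the highest CD-TN median of the 7 strains, 13 CPM, and the log2 fold change there was 0.16 (SE 0.32). In C57BL/6J the log2 fold change of 0.66 passed narrowly with all mice (limma-voom adjusted p = 0.049) and was 1.05 without CD-TN mouse 2 (adjusted p = 2.2e-04), and it was 0.90 log2 units in cohort 1 and -0.03 in cohort 2. DBA/2J (0.30) and CAST/EiJ (0.54) did not pass.

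Cd9 (ENSMUSG00000030342, chromosome 6, 125460266 to 125494791, minus strand, with 218 exonic bases under Gm26728 on the opposite strand) differed in direction between strains. In C57BL/6J it was downregulated, from 29.1, 41.5, and 55.4 CPM to 17.8, 26.4, and 56.1 CPM, a log2 fold change of -0.61 (SE 0.14, limma-voom adjusted p = 7.7e-04). In PWK/PhJ it was upregulated, from 7.84, 8.64, and 10.9 CPM to 10.6, 15.3, and 23.5 CPM, a log2 fold change of 0.81 (SE 0.20, limma-voom adjusted p = 7.4e-04). The diet effect was 0.67 log2 units lower in C57BL/6J than in the mean of the other 6 strains (a difference of -0.67, limma-voom adjusted p = 0.0084) and 0.98 higher in PWK/PhJ (adjusted p = 4.7e-04). The other 5 strains had log2 fold changes between -0.27 and 0.13, and Cd9 passed in none of them. Its CD-TN level was highest in C57BL/6J and lowest in WSB/EiJ, with medians of 41.5 and 7.05 CPM.

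Lpl (ENSMUSG00000015568, chromosome 8, 68880491 to 68907448, plus strand) encodes lipoprotein lipase, which releases fatty acids from circulating triglycerides. The adult liver makes little of it in hepatocytes. In PWK/PhJ it was upregulated from 7.39, 10.5, and 12.8 CPM to 47.7, 69.0, and 88.8 CPM, without overlap and with a log2 fold change of 2.64 (SE 0.37, limma-voom adjusted p = 2.2e-08). In DBA/2J the order was opposite: 47.6, 83.2, and 124 CPM on CD-TN and 26.9, 47.9, and 61.5 CPM on WD-TN, with overlapping groups and a log2 fold change of -0.81 (SE 0.32). This difference had a limma-voom adjusted p of 0.070 with all mice and 0.016 without C57BL/6J CD-TN mouse 2. The diet effect itself was lower in DBA/2J than in the mean of the other 6 strains (a difference of -1.90, limma-voom adjusted p = 2.0e-04) and higher in PWK/PhJ (2.13, adjusted p = 5.8e-05).

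In 129S1/SvImJ the Lpl log2 fold change was 1.08 (limma-voom adjusted p = 0.0083), and 5 of 6 WD-TN mice exceeded all CD-TN mice. In C57BL/6J it was 0.84 (adjusted p = 0.024, and 0.71 with edgeR), or 1.27 without CD-TN mouse 2 (limma-voom adjusted p = 2.3e-05). A/J (0.49), WSB/EiJ (0.63), and CAST/EiJ (0.85) did not pass with all mice. Levels on CD-TN were highest in DBA/2J, A/J, and WSB/EiJ, whose medians of 83.2, 77.4, and 76.0 CPM overlapped in range, and lowest in CAST/EiJ and PWK/PhJ, at 12.1 and 10.5 CPM. Of 6 adipocyte markers 3 passed the filter, of which 1, Cidea, was upregulated in C57BL/6J (14.3% of all genes) and DBA/2J (10.2%) and 0 in the other strains (4.39% to 15.1%). Their summed level in PWK/PhJ was 0.0201 to 1.96 CPM on CD-TN, where Ucp1 had no reads, and 0.0429 to 1.15 CPM on WD-TN.

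Fabp5 (ENSMUSG00000027533, chromosome 3, 10012548 to 10016607, plus strand) encodes a cytosolic fatty acid-binding protein. It was the member with a lower level on WD-TN in all 7 strains, and it was downregulated in 5. In PWK/PhJ it went from 45.8, 78.9, and 166 CPM to 10.1, 15.3, and 20.6 CPM (log2 fold change -2.48, SE 0.34, limma-voom adjusted p = 9.1e-09), and in DBA/2J from 23.2, 43.4, and 74.3 CPM to 3.79, 8.12, and 18.5 CPM (log2 fold change -2.48, SE 0.38, adjusted p = 5.2e-07). In C57BL/6J it went from 28.0, 67.6, and 161 CPM to 11.3, 17.4, and 27.3 CPM (log2 fold change -2.05). Each WD-TN mouse was below each CD-TN mouse in these 3 strains. The log2 fold change was -1.96 in A/J and -1.65 in 129S1/SvImJ, both past the limma-voom threshold, and -0.96 in CAST/EiJ and -0.76 in WSB/EiJ, where the adjusted p was 0.088 and 0.36. Of 8 hepatocyte markers, 2 to 5 were downregulated in each strain (3.97% to 14.5% of all genes), and 1 was upregulated in C57BL/6J (14.3%). The summed level of the 8 markers in PWK/PhJ was 114431 to 139631 CPM on CD-TN and 71614 to 100350.1 CPM on WD-TN. Their part in the Fabp5 values was not tested.

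**Figure D3:**
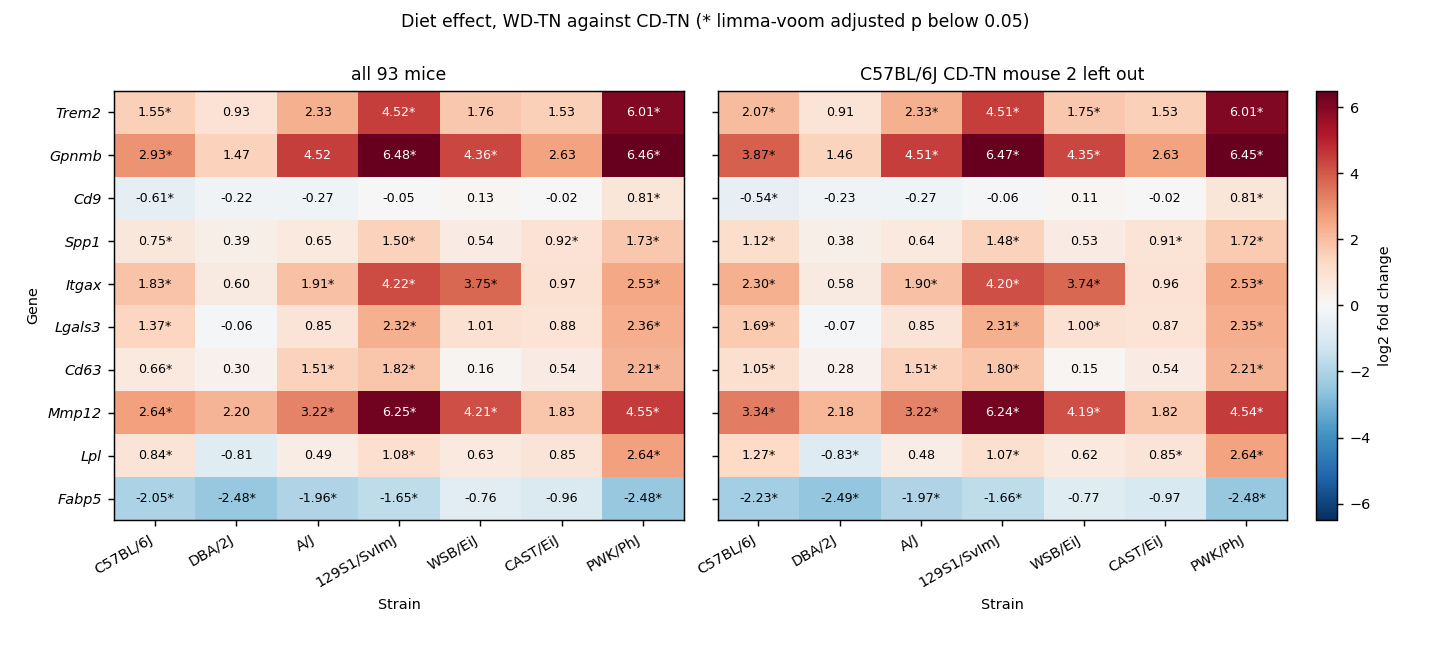
Log2 fold change of WD-TN against CD-TN for each gene and strain, with all 93 mice on the left and without C57BL/6J CD-TN mouse 2 on the right. Stars mark a limma-voom adjusted p below 0.05. Values run from -2.48 for Fabp5 in PWK/PhJ to 6.48 for Gpnmb in 129S1/SvImJ, and A/J and WSB/EiJ each have 2 more stars in Trem2, Gpnmb, or Lgals3 on the right.

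Whether these diet effects differed between strains was tested with limma's F test. They did for 9 of the 10 genes, against 37.5% of all genes, with Spp1 at an adjusted p of 0.072. Without C57BL/6J CD-TN mouse 2, Spp1 passed too (adjusted p = 0.021) and the count was 10, against 41.5% of all genes. Levels differed between strains for 9 of 10 on CD-TN and 10 of 10 on WD-TN, beside 93.7% and 93.9% of all genes, so that these level counts were near the background. Gpnmb was the exception on CD-TN (limma-voom adjusted p = 0.086). Without the mouse, Mmp12 did not pass there either (adjusted p = 0.067).

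Against the mean of the other 6 strains, the diet effect was higher in PWK/PhJ for Trem2 (by 3.91 log2 units), Lpl (2.13), Cd63 (1.38), Lgals3 (1.29), and Cd9 (0.98), a count of 5 where 16.3% of all genes differed in either direction. The size of the Trem2 value is uncertain, since no PWK/PhJ mouse exceeded 0.0834 CPM on CD-TN. By limma-voom, 2 further strains had higher or lower effects for several genes. The diet effect was higher in 129S1/SvImJ for Mmp12 (3.14), Itgax (2.29), and Lgals3 (1.25), a count of 3 beside 6.28% of all genes. DBA/2J had lower effects for Itgax (-1.94), Lpl (-1.90), and Lgals3 (-1.52), a count of 3 beside 7.77%. In C57BL/6J the 1 gene with a lower effect by limma-voom was Cd9, beside 4.69% of all genes. With all mice, edgeR and DESeq2 each called 4 lower there, where 963 of 19110 and 1214 of 19081 genes differed in either direction. By edgeR and DESeq2, 6 and 7 were higher in PWK/PhJ (2892 of 19110 and 3199 of 19081 genes). In 129S1/SvImJ 4 and 5 were higher (1168 of 19110 and 1423 of 17601), and in DBA/2J 4 and 4 were lower (1483 of 19110 and 1784 of 17601). No gene of the list differed in A/J, WSB/EiJ, or CAST/EiJ, where 0.466%, 0.947%, and 14.5% of all genes did. For these 3 strains, edgeR called 0, 0, and 0 (0.424%, 1.23%, and 15.8% of all genes) and DESeq2 called 0, 1, and 1 (0.894%, 2.35%, and 17.5%), and at an unadjusted limma-voom p under 0.05 the counts were 0, 3, and 2.

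The C57BL/6J level was higher than the mean of the other 6 strains for 10 of 10 genes on CD-TN and 10 of 10 on WD-TN, where 29.5% and 29.0% of all genes were higher. Without CD-TN mouse 2, Lpl no longer passed on CD-TN (log2 difference 0.21, limma-voom adjusted p = 0.38). The DBA/2J level was lower than the mean of the other strains for 8 of 10 genes on WD-TN (21.6% of all genes), all except Cd9 and Fabp5, and for 2 of 10, Spp1 and Cd63, on CD-TN (19.4% of all genes). It was higher for Cd9, Lpl, and Fabp5 on CD-TN (22.9% of all genes) and for Cd9 on WD-TN (25.6%). The DBA/2J counts on CD-TN, 2 lower and 3 higher, were near those shares. The CAST/EiJ level was lower for 6 of 10 on CD-TN (31.5% of all genes) and 7 of 10 on WD-TN (32.6%). In PWK/PhJ 3 genes were higher (30.2%) and 3 lower (28.4%) on CD-TN, both near those shares, and on WD-TN 8 were higher (33.2%), all except Cd9 and Lpl. In 129S1/SvImJ 5 were higher on WD-TN, beside 4109 of 19110 genes. In WSB/EiJ 4 were lower on CD-TN, beside 4557 of 19110 genes. Other counts of 129S1/SvImJ, WSB/EiJ, and A/J are not reported here. Strains were kept in partly different cohorts, and those of WSB/EiJ held no other strain, so that differences in level between strains and between cohorts cannot be fully told apart, and no fit of levels with cohort was run. All reads were aligned to the C57BL/6J genome, with median unmapped shares of 2.39% in C57BL/6J and 12.5% in CAST/EiJ. Strain and mapping to that genome cannot be told apart in these levels, and the part of mapping was not tested. By median, the order of Trem2 on WD-TN was C57BL/6J, PWK/PhJ, 129S1/SvImJ, WSB/EiJ, A/J, DBA/2J, and CAST/EiJ. Neighbours in that order overlapped in range except A/J (0.747 to 2.10 CPM) and DBA/2J (0.346 to 0.662 CPM). For Gpnmb on WD-TN the order was PWK/PhJ, C57BL/6J, 129S1/SvImJ, WSB/EiJ, A/J, CAST/EiJ, and DBA/2J, in which CAST/EiJ and DBA/2J were the neighbours without overlap.

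Markers of cell types were examined in the same way. Of all genes, limma-voom called 15.1% upregulated in PWK/PhJ, 14.3% in C57BL/6J, 14.5% in 129S1/SvImJ, and 4.39% in A/J. The shares were 4.97% in WSB/EiJ, 9.77% in CAST/EiJ, and 10.2% in DBA/2J. Downregulated were 14.5%, 11.9%, 13.6%, 4.64%, 3.97%, 9.73%, and 7.77% in that order of strains. Lists are short, so a count of 0 or 1 is not read as a change of the list. Of 12 general macrophage markers, among them Adgre1, Csf1r, and Lyz2, 10 each were upregulated in PWK/PhJ, C57BL/6J, and 129S1/SvImJ, 4 in WSB/EiJ, 1 in A/J, 1 in CAST/EiJ, and 0 in DBA/2J. Of 8 Kupffer cell markers, 3 were upregulated in 129S1/SvImJ, 2 in C57BL/6J, 1 each in CAST/EiJ and PWK/PhJ, and 0 in the other strains. The summed level of the 12 markers was 78.7 to 161 CPM on CD-TN and 188 to 266 CPM on WD-TN in PWK/PhJ, and 222 to 317 and 237 to 385 CPM in DBA/2J. Markers of some other cells were also upregulated on WD-TN. Of 7 neutrophil markers, 5 each were upregulated in PWK/PhJ and 129S1/SvImJ, and 2 in C57BL/6J (5 without CD-TN mouse 2). The count was 1 in WSB/EiJ and 0 in A/J, DBA/2J, and CAST/EiJ. Of 8 T and NK cell markers, 6 were upregulated in 129S1/SvImJ, 1 each in WSB/EiJ and CAST/EiJ, and 0 in the other strains, and 1 was downregulated in PWK/PhJ. Of 5 B cell markers, 0 were upregulated in any strain, and 1 was downregulated in C57BL/6J. Of 10 stellate cell and fibroblast markers, 6 were upregulated in PWK/PhJ, 5 in C57BL/6J, 4 in 129S1/SvImJ, 2 in A/J, and 0 in DBA/2J, WSB/EiJ, and CAST/EiJ. The 8 endothelial cell markers moved both ways. C57BL/6J had 3 of them upregulated but 2 downregulated, 129S1/SvImJ had 3 and 0, and PWK/PhJ had 1 and 1. For DBA/2J the counts were 0 upregulated against 3 downregulated, for WSB/EiJ 0 against 1, and for A/J and CAST/EiJ 0 against 0. In PWK/PhJ the summed level of neutrophil markers was 3.23 to 5.97 CPM on CD-TN and 7.08 to 11.8 CPM on WD-TN, and that of stellate cell and fibroblast markers was 152 to 231 and 326 to 732 CPM. In 129S1/SvImJ the summed level of T and NK cell markers was 1.91 to 3.03 CPM on CD-TN and 3.83 to 6.92 CPM on WD-TN. Their part in the levels of the 10 genes was not tested. Lyz2, which encodes lysozyme, had a log2 fold change of 3.27 in PWK/PhJ, and Cx3cr1, the fractalkine receptor of monocytes, had 3.52 in 129S1/SvImJ.

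The change of each gene was therefore also taken relative to the mean log2 CPM of those 12 markers in the same mouse. The 70 comparisons of 10 genes in 7 strains used two-sided exact permutation tests over the mice of a strain, and their p-values are not adjusted. Relative to the markers, Mmp12 was higher on WD-TN in 7 of 7 strains, by 1.63 log2 units in CAST/EiJ to 4.78 in 129S1/SvImJ, with exact p between 0.0012 and 0.032. Gpnmb was higher by 2.12 (C57BL/6J) to 4.91 (PWK/PhJ and 129S1/SvImJ) in the 6 strains other than DBA/2J, with exact p between 0.0012 and 0.041. In DBA/2J, with 7 reads or fewer in each mouse, its value is not read. Trem2 was higher by 3.64 in PWK/PhJ, 2.76 in 129S1/SvImJ, 1.76 in A/J, 1.20 in CAST/EiJ, 0.90 in WSB/EiJ, and 0.79 in DBA/2J, with exact p of at most 0.0096. In C57BL/6J the Trem2 difference was 0.65 (exact p = 0.25). Without CD-TN mouse 2 the C57BL/6J differences were 1.01 for Trem2, 2.85 for Gpnmb, 2.34 for Mmp12, and 1.28 for Itgax, with exact p of at most 0.045. Itgax was higher by 0.53 in DBA/2J to 2.79 in 129S1/SvImJ in all strains, with exact p of at most 0.038. The C57BL/6J values with all mice were sensitive to how the test was built. With mice permuted within cohorts the exact p was 0.064 for Mmp12, 0.082 for Gpnmb, and 0.043 for Itgax, and relative to Adgre1 alone it was 0.065, 0.069, and 0.096 in that order. For Itgax in DBA/2J it was 0.049 within cohorts and 0.013 relative to Adgre1 alone.

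For Spp1, Lpl, Cd9, and Fabp5 the change relative to the markers differed by gene. Values for Lgals3 and Cd63, and for Spp1 and Lpl in strains not named below, are not reported here. Spp1 was 0.80 log2 units higher relative to them in CAST/EiJ (exact p = 0.0028) and 0.34 in DBA/2J (exact p = 0.022), while in PWK/PhJ and 129S1/SvImJ the differences were 0.29 and 0.17 (exact p = 0.39 and 0.48). Lpl was 1.20 higher in PWK/PhJ (exact p = 0.0012) and lower in DBA/2J (difference -0.86, exact p = 0.017). The Cd9 change relative to the markers had differences from -0.13 in CAST/EiJ (exact p = 0.58) and -0.26 in DBA/2J (exact p = 0.11) to -1.48 in C57BL/6J, with exact p of at most 0.022 in the 5 strains other than CAST/EiJ and DBA/2J. Relative to Adgre1 alone, the Cd9 difference passed an unadjusted exact p of 0.05 in C57BL/6J and 129S1/SvImJ and was 0.08 in CAST/EiJ. For Fabp5 the change relative to the 12 markers ran from -1.07 in CAST/EiJ to -3.92 in PWK/PhJ, lower on WD-TN in all 7 strains, with exact p of at most 0.024.

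**Figure D4:**
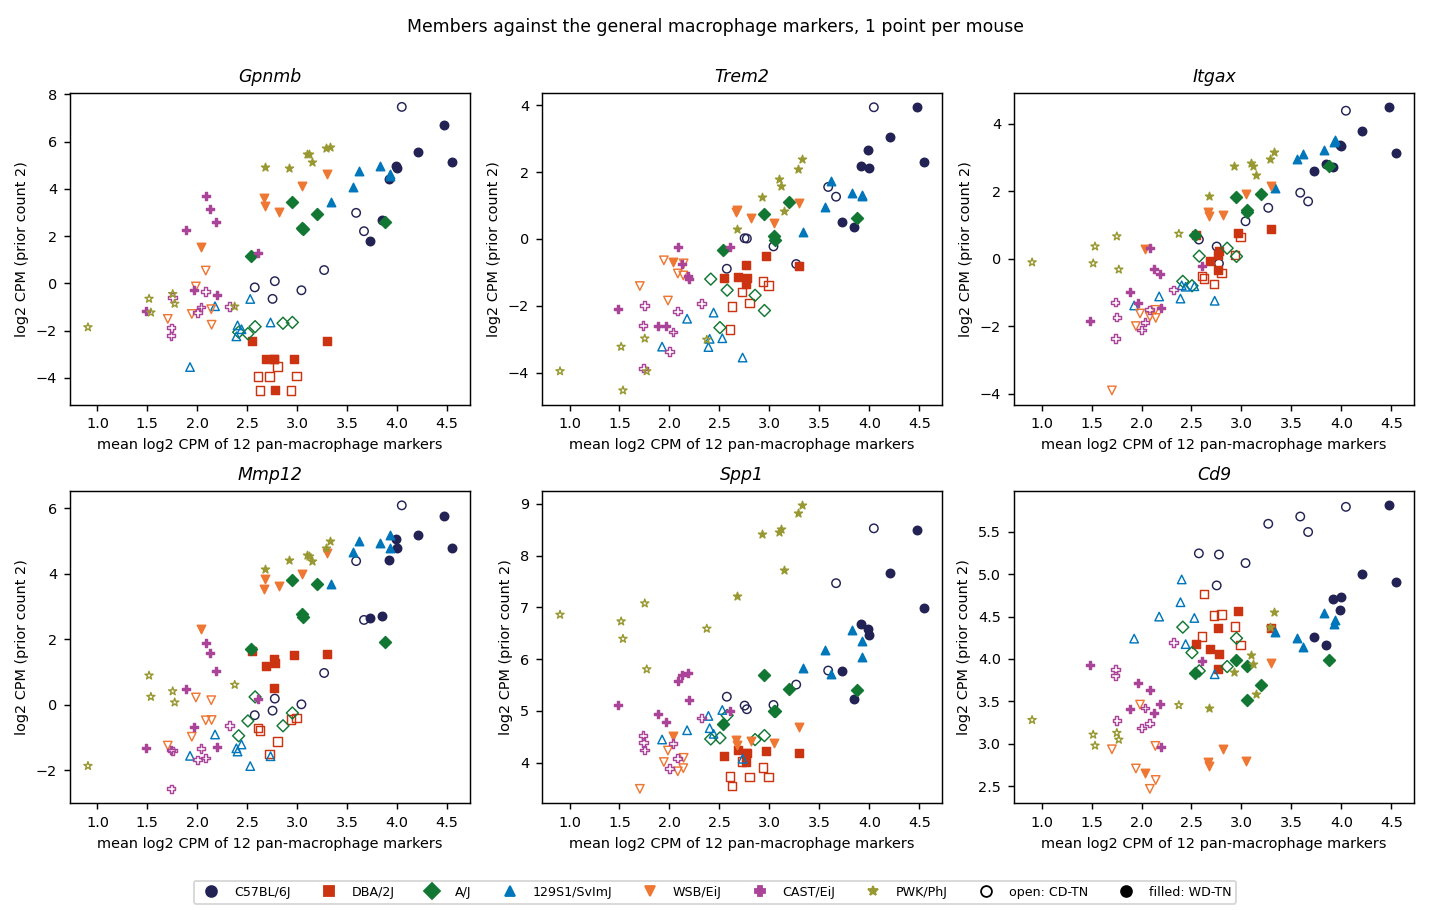
Log2 CPM (prior count 2) of 6 genes in each mouse against the mean log2 CPM of 12 general macrophage markers in that mouse. Symbols are strains, open for CD-TN and filled for WD-TN. DBA/2J mice of both diets lie at marker means of 2.55 to 3.29, within the range of the other strains, and at the bottom of the Gpnmb panel, and the highest Cd9 values are those of C57BL/6J mice.

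Partners of the members were described from 4 lists. TREM2 signals through TYROBP to SYK. HCST is a further adaptor of the receptor, and APOE is among the ligands of TREM2. Of 10 such genes, WD-TN upregulated 8 each in C57BL/6J (14.3% of all genes) and 129S1/SvImJ (14.5%), and 7 in PWK/PhJ (15.1%). It upregulated 2 in WSB/EiJ (4.97%), 1 each in DBA/2J (10.2%) and CAST/EiJ (9.77%), and 0 in A/J (4.39%). Counts of 0 and 1 were near those shares, and 0 were downregulated in any strain (3.97% to 14.5% of all genes). In 129S1/SvImJ, Tyrobp was 7.64 ± 1.11 CPM on CD-TN (SD, n = 7) and 18.2 ± 2.83 CPM on WD-TN (SD, n = 6), a log2 fold change of 1.25, and it rose by 1.05 in PWK/PhJ and 0.76 in C57BL/6J. Syk rose by 1.25, 0.90, and 0.91 in the same strains and by 0.78 in WSB/EiJ. In DBA/2J the 1 gene that passed was Apoe, at a log2 fold change of 0.42 (SE 0.07, limma-voom adjusted p = 1.5e-06).

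Of 26 further genes that single-cell studies place in lipid-associated macrophages (cathepsins, scavenger receptors, annexins, and others), 22 were upregulated in 129S1/SvImJ (14.5% of all genes). The counts were 20 in C57BL/6J (14.3%), 16 in PWK/PhJ (15.1%), 7 in A/J (4.39%), and 4 in DBA/2J (10.2%). Near the share of all genes were the counts of 2 in WSB/EiJ (4.97%) and 2 in CAST/EiJ (9.77%). At most 2 of the 26 genes were downregulated in any strain (3.97% to 14.5% of all genes). Their median log2 fold change was highest in PWK/PhJ (1.15) and 129S1/SvImJ (1.12), with 0.70 in C57BL/6J and 0.08 in DBA/2J. Clec7a, which encodes the beta-glucan receptor dectin-1, had log2 fold changes of 3.12 in PWK/PhJ, 2.63 in 129S1/SvImJ, 1.58 in WSB/EiJ, and 1.32 in A/J. Cd36, a fatty acid scavenger receptor that hepatocytes also express, rose by 2.81 in A/J, 2.57 in 129S1/SvImJ, 2.00 in DBA/2J, and 1.87 in C57BL/6J. In PWK/PhJ the largest increase of this list was that of Ms4a7, which was 0.0897 ± 0.0571 CPM on CD-TN (SD, n = 6) and 2.00 ± 1.18 CPM on WD-TN (SD, n = 7). In CAST/EiJ, Plin2, which coats lipid droplets, fell by 1.41 on the log2 scale (limma-voom adjusted p = 7.5e-05).

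The MiT/TFE factors (Mitf, Tfeb, Tfe3, and Tfec) drive lysosomal genes, Gpnmb among them. Tfec was upregulated in 129S1/SvImJ (log2 fold change 0.55) and PWK/PhJ (0.48) and downregulated in DBA/2J (-0.43, limma-voom adjusted p = 0.048), Mitf was upregulated in PWK/PhJ (0.32), and 0 of the 4 passed in the other 4 strains. Of all genes, 14.5% were upregulated in 129S1/SvImJ and 15.1% in PWK/PhJ, and 7.77% were downregulated in DBA/2J. In the other 4 strains 4.39% to 14.3% of all genes were upregulated and 3.97% to 11.9% downregulated. Of 14 ligands, receptors, and inhibitors of the members, 6 were upregulated in PWK/PhJ (15.1% of all genes), 8 in C57BL/6J (14.3%), and 7 in 129S1/SvImJ (14.5%). In the other strains 0 to 2 were upregulated (4.39% to 10.2% of all genes). Downregulated were 3 in CAST/EiJ (9.73% of all genes), 1 in each of 5 strains (3.97% to 13.6%), and 0 in PWK/PhJ (14.5%). Timp1, an inhibitor of matrix metalloproteinases, rose by 4.59 in 129S1/SvImJ, 4.44 in PWK/PhJ, and 2.51 in C57BL/6J. Cd44, a receptor of osteopontin, rose by 1.86 in 129S1/SvImJ and 1.59 in PWK/PhJ. Angptl8, a hepatic regulator of lipoprotein lipase, fell by 1.20 (DBA/2J) to 2.22 (WSB/EiJ) in the 5 strains other than PWK/PhJ and CAST/EiJ, and rose by 1.23 in CAST/EiJ (limma-voom adjusted p = 0.049).

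The likeness of other genes to each member was described as Pearson's r of log2 CPM over the 14 group means, among 12364 genes. The closest to Trem2 were Ptafr (0.952), Col1a2 (0.949), and Clec7a (0.948). Ptafr, the receptor for platelet-activating factor, was also the closest to Lgals3 (0.974) and Mmp12 (0.946). Itgax was closest to Sema4d (0.983), Ccl2 (0.972), and Ccr2 (0.970), and Gpnmb to Myo5a (0.928), Mfap4 (0.920), and Plxdc2 (0.917). Cd63 was closest to Mfge8 (0.956), a secreted bridge for apoptotic cells, Spp1 to Psmd10 (0.931), Cd9 to Gm49331 (0.953), Lpl to 9330175E14Rik (0.910), and Fabp5 to Itga5 (0.923). The 14 means share strain and diet, so these values describe shared strain and diet patterns.

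Within groups, after the mean of each strain and diet was taken off, the genes also varied together over the 93 mice. The median r of a gene with the other 9 was 0.72 for Trem2, 0.72 for Gpnmb, 0.68 for Mmp12, 0.68 for Itgax, 0.67 for Spp1, 0.66 for Cd63, and 0.63 for Lgals3, and lower for Lpl (0.44), Cd9 (0.40), and Fabp5 (-0.16). Without C57BL/6J CD-TN mouse 2 the medians were 0.63 for Trem2, 0.59 for Gpnmb, 0.56 for Mmp12, 0.50 for Lgals3, 0.38 for Cd9, 0.23 for Lpl, and -0.04 for Fabp5. Genes of the same library share its RNA quality and cell content, and the values are descriptive.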

How the data were processed

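Liver RNA-seq counts of 93 mice in 14 groups of strain and diet were used. Per the labels and the methods of the study, the authors aligned the reads of all strains to the mouse reference genome (GRCm38, C57BL/6J) with STAR (2.7.1a in the submitters' processing notes) and deposited 1 table of raw counts per Ensembl gene, without normalization. The annotation release and whether counting used strand are not given in the sources used here. The 4 summary lines of the table (unmapped, multimapping, no feature, and ambiguous reads) were left out of library sizes, and 0 columns lacked a sample.

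Genes of low count were removed (filterByExpr of edgeR, min.count 10), and counts were scaled by TMM (factors 0.81 to 1.27), and fitted with limma-voom to 14 group means over all mice. P-values were adjusted by Benjamini-Hochberg over the 19110 genes of each contrast, with a threshold of 0.05. CPM values are after TMM scaling, and log2 CPM used a prior count of 2. Differences relative to 12 macrophage markers used exact permutation tests. R 4.3.3, limma 3.58.1, edgeR 4.0.16, DESeq2 1.42.0, Python 3.11.15, pandas 2.3.3, and numpy 2.4.6 were used. Fits by limma-voom and edgeR were tested on simulated data, for the diet effect within a strain and the F test between strains. The DESeq2 fits, the level contrasts, and the contrasts of a strain against the others were not tested in this way.

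Groups came from the labels of each sample, and mice were numbered in the order of the samples. Each mouse is a separate animal, and each strain was studied in cohorts. All 10 genes were named in each strain. From each partner or marker list, named genes were at most 3 per strain past the threshold with the largest log2 fold change. The genes and lists were chosen with earlier results of these data known. The alternatives were edgeR, DESeq2, upper-quartile scaling, other filters on counts, cohort or RNA integrity number (7 to 9.7) as a covariate, sample quality weights, separate fits by strain, and each mouse left out in turn. Leaving out C57BL/6J CD-TN mouse 2 was added after seeing the data, alone or with edgeR or DESeq2, as were the differences within cohorts. Depth was 40020424 to 49894856 reads on genes in a mouse, with a median of 46618609. At this depth a gene at 0.02 CPM has about 1 read, so low values of Gpnmb and Trem2 carry large counting error. Not every gene of the marker lists is reported here by name.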

Additional observations from a re-analysis of the deposited data

Results flagged for a closer look

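Chance alone places about 1 in 20 groups (5%) past the limit used for a mouse far from its group, and of 140 groups of 1 gene, strain, and diet, 17 were past it. The measure is the gap of the highest or lowest mouse to its nearest neighbour as a share of the range of the group. Of the 17, 3 were C57BL/6J CD-TN mouse 2, the highest for Gpnmb (0.552), Itgax (0.537), and Cd63 (0.538). In WSB/EiJ, WD-TN mouse 4 was the highest for Cd9 (0.784) and for Fabp5 (0.671), WD-TN mouse 6 the lowest for Trem2 (0.662), CD-TN mouse 4 the lowest for Itgax (0.799), and CD-TN mouse 1 the highest for Lpl (0.755). In 129S1/SvImJ, WD-TN mouse 1 was the lowest for Cd63 (0.690) and for Mmp12 (0.670). In DBA/2J on WD-TN, mouse 2 was the lowest for Gpnmb (0.623), with 0 reads, mouse 4 the highest for Cd63 (0.583), and mouse 5 the lowest for Mmp12 (0.600). The others were Spp1 in A/J CD-TN mouse 5 (highest, 0.834), Cd63 in CAST/EiJ WD-TN mouse 3 (highest, 0.543), Mmp12 in PWK/PhJ CD-TN mouse 5 (lowest, 0.703), and Lpl in C57BL/6J WD-TN mouse 3 (highest, 0.705).

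The diet effect differed between strains, by limma's F test, for 9 genes. The adjusted p was 3.9e-04 for Trem2, 0.025 for Gpnmb, 4.0e-04 for Cd9, 2.3e-05 for Itgax, 2.2e-05 for Lgals3, 3.3e-04 for Cd63, 0.0045 for Mmp12, 7.4e-06 for Lpl, and 0.023 for Fabp5.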

How the results depend on the processing

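Counts of genes upregulated on WD-TN moved with several settings. From 8 in C57BL/6J, edgeR gave 2, DESeq2 2, a separate fit 3, cohort as a covariate 5, and single mice left out 5 to 8. From 0 in DBA/2J, edgeR, DESeq2, and sample quality weights gave 1 each, a separate fit 3, and edgeR and DESeq2 without C57BL/6J CD-TN mouse 2 gave 1 each, against 0 to 0 with single mice left out. From 3 in A/J, edgeR gave 5, DESeq2 6, quality weights 7, a separate fit 8, and single mice left out 2 to 5, while without C57BL/6J CD-TN mouse 2 limma-voom gave 5, edgeR 6, and DESeq2 6. From 3 in WSB/EiJ, edgeR, DESeq2, quality weights, a separate fit, and each of the 3 tests without that mouse gave 5, and single mice left out 3 to 4. From 1 in CAST/EiJ, edgeR gave 5, DESeq2 6, genes of any count 0, quality weights 2, a separate fit 3, single mice left out 0 to 1, and limma-voom, edgeR, and DESeq2 without that mouse 2, 7, and 7. In 129S1/SvImJ and PWK/PhJ single mice left out gave 8 to 8 and 9 to 9. Where a setting has no share over all genes in this report, its count is not read against the background. That is so for quality weights, separate fits, other count filters, and single mice left out.

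A minimum of 10 counts in every mouse left 6 of the 10 genes in the test, which lowered the counts to 4 in C57BL/6J, 1 in A/J, 4 in 129S1/SvImJ, 0 in WSB/EiJ, and 5 in PWK/PhJ, to 5 for diet effects that differed between strains, and to 6 for levels on WD-TN. For diet effects against the mean of the other 6 strains, the count of 12 by limma-voom became 22 by DESeq2, and 26 when DESeq2 ran without the mouse. These counts are likewise given without a share over all genes and are not read against the background. Unless stated, the cause of these moves was not tested. Separate fits did not test Gpnmb in DBA/2J and Trem2 in CAST/EiJ.

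Changes of sign occurred for differences that were not called. Cd9 in 129S1/SvImJ was 0.011 with upper-quartile scaling and -0.15 to 0.040 with mice left out, Cd9 in WSB/EiJ was -0.081 to 0.24 with mice left out, Cd9 in CAST/EiJ was 0.0096 with upper-quartile scaling, 0.015 with quality weights, and -0.080 to 0.088 with mice left out, and Lgals3 in DBA/2J was -0.15 to 0.034 (log2 fold changes). Of 600 values of single genes under these other settings, mice left out in turn aside, 525 kept direction and side of the threshold, 26 lost the call, 46 gained it, and 3 changed sign. No paired analysis was possible because the replicate numbers follow the order of the samples and mark no shared animal, litter, or day.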
